A study of Mus musculus with 6 samples.

Results

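A set of 10 genes that write, keep or remove a pair of repressive chromatin marks was followed in RAW264.7 cells treated with SKI-II. They are Dnmt1, Dnmt3a, Uhrf1, Hells, Tet2 and Tet3, which act on DNA methylation, and Ezh1, Ezh2, Suz12 and Eed, the core of Polycomb repressive complex 2 (PRC2). The members were picked out by gene symbol, with earlier results of these data known, and all 10 were found among the 49315 genes of the deposited table. RAW264.7 is a mouse macrophage-like line, labelled wild type, and every library came from this 1 line. SKI-II, a compound that inhibits sphingosine kinases, was given at 4 μg/mL for 24 h, and the control cells received the matching amount of DMSO, the vehicle. Each condition had 3 libraries. The study's methods speak in general of repeated experiments and of biological replicates for the culture procedure used, but the labels do not tie the 3 sequenced libraries of a condition to separate cultures, so p-values measure the spread between these libraries, which may be partly technical.

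DNA methylation places a methyl group on cytosine, mostly where a guanine follows, and helps to keep genes, imprints and repeats silent. Dnmt3a adds the mark to new sites. After each round of replication the new strand is bare, and Uhrf1 binds such half-methylated sites and brings Dnmt1, which copies the mark, while Hells, a chromatin remodeler, opens nucleosomes for this step. Tet enzymes oxidize the methyl group as a first step of its removal. PRC2 methylates lysine 27 of histone H3 through Ezh2 or, mostly in cells that do not divide, through Ezh1, and needs Suz12 and Eed as scaffold and reader. Dnmt1, Uhrf1, Hells and Ezh2 are known as genes expressed most in dividing cells, and mutations of DNMT3A, TET2 and EZH2 are known from human myeloid disease.

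Libraries held between 12495957 and 20050677 counts, and all 10 genes passed the filter on low counts that left 12274 genes for testing. Counts were scaled by TMM and are given as normalized counts on the scale of the mean library, and a gene was called where its p, adjusted by Benjamini-Hochberg over all tested genes in the quasi-likelihood test of edgeR, was below 0.05. The macrophage label was checked first. All 8 macrophage markers examined were expressed in every library, with summed levels of 138000 to 203110 normalized counts in DMSO and 65504 to 104110 in SKI-II. Of these, 4 fell, led by Lyz2 (lysozyme) with a log2 fold change of -1.26, and 4 were not called. The share that fell was 50.0%, beside 19.7% of all tested genes. Without DMSO replicate 3, 1 marker was called higher. The 11 markers of T, B, epithelial, fibroblast and endothelial cells were all too low to be tested and summed to 15.2 to 29.3 normalized counts per library, with Ms4a1, Epcam and Krt18 among those at 0 throughout. Their part in the results below was not tested.

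Of the 10 genes, 7 fell with SKI-II, 0 rose and 3 were not called. Among all tested genes 19.7% fell by the same test and 18.4% rose. The 7 were Uhrf1, Dnmt1, Dnmt3a, Hells, Ezh2, Tet3 and Suz12, and for each of them every SKI-II library lay below every DMSO library, a separation seen in this direction in 25.5% of tested genes. Of the 7, Uhrf1 and Dnmt1 also had a log2 fold change below -1, the size used in the study's methods. Among all tested genes 7.44% were called with a log2 fold change below -1 and 8.28% were called with one above 1. The median log2 fold change of the 10 genes was -0.66, beside 0.0038 over all tested genes. In bulk RNA, fewer cells of a kind and less transcript per cell cannot be told apart.

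The promoters of the 10 genes were searched for E2F-type letters, which are known from promoters of replication genes, as a description of their sequence. Sequences are those of RefSeq on GRCm38.p6, from 250 bases before to 50 after each listed start, and all 10 genes matched an entry. The letters searched, on both strands, were TTTCCCGC, TTTCGCGC, TTTGCCGC and TTTGGCGC. At least 1 match was found for 5 genes, Dnmt1, Uhrf1, Hells, Ezh2 and Suz12, beside 4.87% of the 9195 tested genes with an entry. The letters are rich in G and C, and so were the windows that held them, with 31 to 41 CpG and a GC content of 64.3% to 71.0%, against medians of 7 CpG and 52.7% over all windows. The part of this composition in the count of 5 was not tested. None of these letters occurred in the windows of Dnmt3a, Tet3, Tet2, Ezh1 or Eed, which held 17 to 57 CpG. The 5 genes are shown here with the match in capitals, in the direction of the gene. The stretches lie before the start of the matched window for Uhrf1, Dnmt1, Hells and Suz12. For Ezh2 the stretch spans the start, and the match itself lies just after it. Those of Uhrf1 and Dnmt1 lie after another listed start of the same gene.
Uhrf1: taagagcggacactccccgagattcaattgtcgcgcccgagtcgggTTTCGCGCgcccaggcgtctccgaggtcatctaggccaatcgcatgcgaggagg
Dnmt1: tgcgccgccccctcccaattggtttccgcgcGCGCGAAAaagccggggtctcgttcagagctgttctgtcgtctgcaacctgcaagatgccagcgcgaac
Hells: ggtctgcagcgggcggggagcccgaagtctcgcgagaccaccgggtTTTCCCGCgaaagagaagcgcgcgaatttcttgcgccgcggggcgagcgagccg
Suz12: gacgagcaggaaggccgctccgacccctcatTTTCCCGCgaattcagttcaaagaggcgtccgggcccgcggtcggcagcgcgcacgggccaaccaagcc
Ezh2: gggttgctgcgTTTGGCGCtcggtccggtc

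These stretches are chr17:56304082-56304181 (plus strand) for Uhrf1, chr9:20952774-20952873 (minus strand) for Dnmt1, chr19:38930882-38930981 (plus) for Hells, chr11:79992856-79992955 (plus) for Suz12 and chr6:47595009-47595038 (minus) for Ezh2. In Dnmt1 the match reads on the opposite strand, so the capitals are its reverse complement. The matches began 185, 219, 62 and 219 bases before the listed start in Uhrf1, Dnmt1, Hells and Suz12, and at base 4 after it in Ezh2. Uhrf1 and Dnmt1 have several listed starts, and the matches lie at 1 of 2 and 1 of 3 of them. That Dnmt1 window held a second match, TTTGGCGC, at base 34 after the start. Other elements of cell cycle promoters were searched in the same way. CCAAT was found in 6 genes (43.2% of tested genes) and the CHR element TTTGAA in 3 genes, Dnmt1, Suz12 and Eed (14.5% of tested genes). A match describes the letters of a window and does not show that a factor binds there.

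The largest fall was that of Uhrf1. It had 3223, 2535 and 2201 normalized counts in DMSO replicates 1, 2 and 3, and 341, 488 and 344 in SKI-II replicates 1, 2 and 3. The highest SKI-II library was thus far below the lowest DMSO library. The level with SKI-II was 14.7% of that with DMSO (95% confidence interval 11.1% to 19.6%), which is -2.76 on the log2 scale with a standard error of 0.19 (edgeR, adjusted p = 1.28e-05). In order of log2 fold change from the lowest, Uhrf1 held rank 55 of all tested genes.

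Dnmt1, which copies the mark, had 10646, 10367 and 8285 normalized counts with DMSO and 2887, 2866 and 2865 with SKI-II. The 3 SKI-II values lay closer together than those of any other of the 10 genes, with an SD of 12.4 around a mean of 2873 (n = 3), against 1290 around 9766 in DMSO (n = 3). This SD is smaller than counting error alone gives at 2580 to 3517 reads, so the closeness is not read as a trait of Dnmt1. The level fell to 29.4% (23.9% to 36.2%), which is -1.77 on the log2 scale with a standard error of 0.13 (edgeR, adjusted p = 1.80e-05), at rank 334. Hells, the remodeler of this group, had 1061, 842 and 700 normalized counts with DMSO and 461, 525 and 419 with SKI-II. It fell to 54.0% (41.4% to 70.4%), with a log2 fold change of -0.89, standard error 0.17 (edgeR, adjusted p = 0.00301). All 3 genes of maintenance methylation therefore fell.

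**Figure D1:**
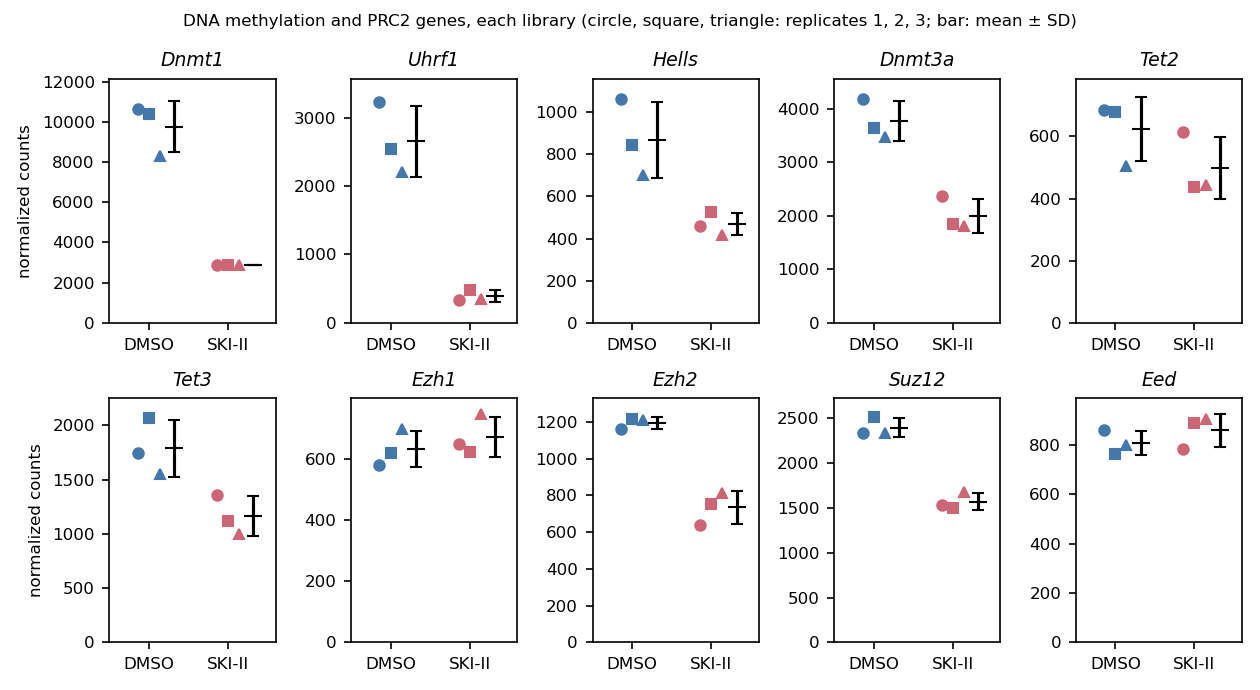
Normalized counts of the 10 genes (vertical axes, linear and starting at 0) in the 3 DMSO and 3 SKI-II libraries, with circles, squares and triangles for replicates 1, 2 and 3 and bars for the mean ± SD. In 7 genes the groups do not overlap, while those of Tet2, Ezh1 and Eed do.

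Dnmt3a, the enzyme that methylates new sites, had 4183, 3644 and 3473 normalized counts with DMSO and 2365, 1841 and 1802 with SKI-II. The groups did not overlap, and the level fell to 53.1% (42.7% to 66.1%), which is -0.91 on the log2 scale with a standard error of 0.14 (edgeR, adjusted p = 0.000925). With 1 library left out, the fold change passed -1 for Dnmt3a without SKI-II replicate 1 (-1.05) and for Hells without DMSO replicate 3 (-1.03), so that 3 in place of 2 genes reached that size.

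Tet3, which oxidizes methylated cytosine, had 1744, 2071 and 1553 normalized counts with DMSO and 1362, 1122 and 999.7 with SKI-II. It fell to 64.9% (51.0% to 82.5%), which is -0.62 on the log2 scale with a standard error of 0.16 (edgeR, adjusted p = 0.0108). This call was lost without DMSO replicate 2, the highest library, where the log2 fold change was -0.51 and the adjusted p 0.0576. Tet2, its relative in the same role, had 685, 680 and 505 normalized counts with DMSO and 615, 438 and 443 with SKI-II. DMSO replicate 3 lay below SKI-II replicate 1, so that the groups overlapped. The log2 fold change of Tet2 was -0.32, with a standard error of 0.18 (edgeR, adjusted p = 0.193), and its interval, 60.3% to 106% of the DMSO level, leaves room for a fall of the size of that of Tet3. Tet1, the third gene of the family, had no count in any library.

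Ezh2, the catalytic subunit of PRC2 in dividing cells, had 1160, 1216 and 1210 normalized counts with DMSO and 638, 752 and 815 with SKI-II. All SKI-II libraries lay below the DMSO libraries, which differed little from each other. Ezh2 fell to 61.5% (50.4% to 75.1%), which is -0.70 on the log2 scale with a standard error of 0.13 (edgeR, adjusted p = 0.00229). Ezh1, the other catalytic subunit, had 581, 619 and 697 normalized counts with DMSO and 649, 621 and 745 with SKI-II, and these ranges overlapped. Its log2 fold change was 0.09, with a standard error of 0.14 (edgeR, adjusted p = 0.649), with an interval of 86.1% to 131% of the DMSO level.

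Suz12, the scaffold of PRC2, had 2334, 2517 and 2330 normalized counts with DMSO and 1536, 1497 and 1674 with SKI-II. It fell to 65.6% (55.3% to 77.7%), which is -0.61 on the log2 scale with a standard error of 0.11 (edgeR, adjusted p = 0.00212). Eed, which reads methylated lysine 27, had 860, 764 and 801 normalized counts with DMSO and 783, 890 and 904 with SKI-II, with overlapping groups. Its log2 fold change was 0.09, with a standard error of 0.12 (edgeR, adjusted p = 0.608), and the interval of 87.9% to 129% does not reach the fall of Suz12 or Ezh2. Within PRC2, therefore, 2 of 4 genes fell and 2 were not called.

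**Figure D2:**
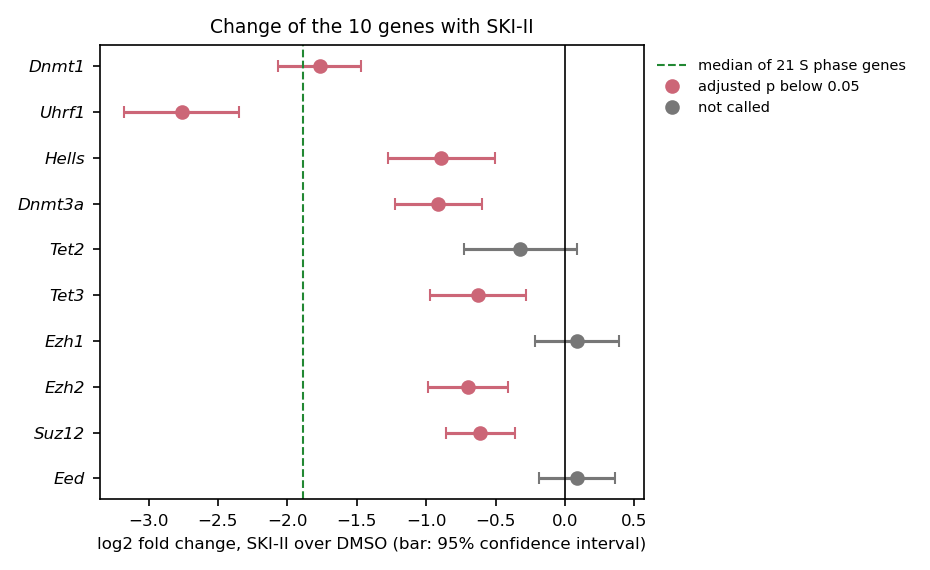
Log2 fold change of each of the 10 genes, SKI-II over DMSO (horizontal axis), with 95% confidence intervals as bars. Red points are genes called at an adjusted p below 0.05 and grey points are not called, and the dashed line is the median of 21 S phase genes, -1.89, to the right of Uhrf1 and within the interval of Dnmt1.

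To compare levels between genes, normalized counts were divided by the length of the longest annotated transcript of each gene in GENCODE M21, in kilobases. On this scale Dnmt1 was the most abundant of the 10 in DMSO, with 1664 ± 220 normalized counts per kb (SD, n = 3), followed by Uhrf1 with 740 ± 145, Suz12 with 547 ± 24.4 and Ezh2 with 429 ± 11.03. Eed, with 391 ± 23.2, and Dnmt3a, with 389 ± 38.3, had overlapping libraries. Tet3 (164 ± 24.0), Ezh1 (150 ± 14.1) and Hells (148 ± 31.0) also overlapped from neighbour to neighbour, and Tet2 was the lowest at 67.9 ± 11.2.

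With SKI-II the order per kb changed. Dnmt1 was still the highest, at 489 ± 2.11 normalized counts per kb (SD, n = 3), but was now followed by Eed at 416 ± 32.0 and Suz12 at 359 ± 21.2, which overlapped. Uhrf1 moved from the second to the seventh place, at 109 ± 23.4, where it overlapped with Tet3 at 106 ± 16.9. The genes between were Ezh2 (264 ± 32.2), which overlapped with Dnmt3a (207 ± 32.5), and Ezh1 (160 ± 15.4). Hells, at 79.8 ± 9.10, and Tet2, between 47.7 and 67.0, held the last places, as in DMSO. These values depend on the transcript length chosen, as counts per gene do not say which isoform was present.

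Ratios within a library do not depend on scaling between libraries, and 4 were compared as log2 ratios of counts per kb in an exact two-sided permutation test, with Benjamini-Hochberg adjustment over the 4. With 3 libraries against 3, the smallest p this test can give is 0.1. Ezh2 transcripts outnumbered Ezh1 transcripts 3.01-, 2.96- and 2.62-fold with DMSO and 1.48-, 1.83- and 1.65-fold with SKI-II. The ratio was lower in each SKI-II library, by 0.80 on the log2 scale on average (exact permutation p = 0.1, adjusted p = 0.133). On this scale Ezh2 still led Ezh1 in every library, though its raw count in SKI-II replicate 1 was 570, against 580 for Ezh1. The size of a ratio depends on the length chosen, while its change between groups does not. With all annotated exon bases as the length, the geometric means were 2.11 with DMSO and 1.22 with SKI-II, in place of 2.86 and 1.65.

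The ratio of Uhrf1 to Dnmt1 was 0.496, 0.400 and 0.435 in DMSO and 0.194, 0.279 and 0.196 in SKI-II, with all SKI-II libraries lower. The mean log2 ratio fell by 1.01 (exact permutation p = 0.1, adjusted p = 0.133). The ratio of Dnmt1 to Dnmt3a was 4.20, 4.69 and 3.94 in DMSO and 2.01, 2.57 and 2.62 in SKI-II. It was again lower in every SKI-II library, by a mean log2 difference of -0.84 (exact permutation p = 0.1, adjusted p = 0.133). With all exon bases as the length, geometric means of this ratio were 5.83 with DMSO and 3.26 with SKI-II, in place of 4.27 and 2.39. The ratio of Tet2 to Tet3 lay between 0.386 and 0.467 in DMSO and between 0.464 and 0.537 in SKI-II. These ranges overlapped, with a log2 difference of 0.30 (exact permutation p = 0.2, adjusted p = 0.2). No ratio could pass a threshold of 0.05 in this design.

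**Figure D3:**
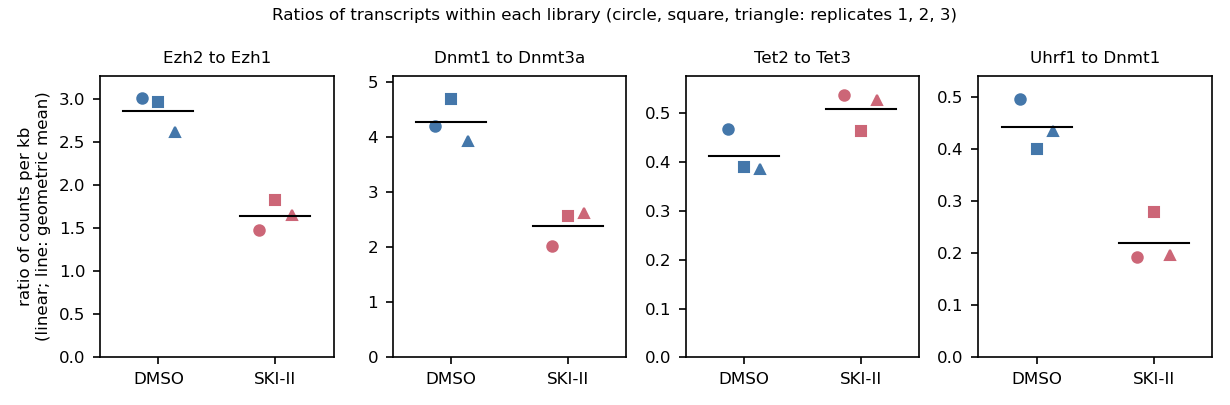
Ratio of counts per kb of 2 genes within each library (vertical axes, linear and starting at 0) for 4 pairs of genes, with circles, squares and triangles for replicates 1, 2 and 3 and lines for the geometric mean. The ratios of Ezh2 to Ezh1, Dnmt1 to Dnmt3a and Uhrf1 to Dnmt1 are lower in every SKI-II library, and that of Tet2 to Tet3 overlaps between the groups.

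The other genes of DNA methylation were examined as a list of 26, of which 24 were tested. Among these 7 fell, 2 rose (4 without DMSO replicate 1) and 15 were not called, with a median log2 fold change of -0.14. The shares were 29.2% lower and 8.33% higher, beside 19.7% and 18.4% of all tested genes. Of the 8 partners of maintenance methylation 5 fell and 0 rose. Pclaf, a partner of the replication clamp that takes part in bringing Dnmt1 to new DNA, fell from 1925 ± 145 normalized counts (SD, n = 3) to 225 ± 55.5, a log2 fold change of -3.10 (adjusted p = 7.65e-06 by edgeR). Lig1, the DNA ligase that joins fragments of the new strand, had a log2 fold change of -2.29, and Pcna, the clamp itself, one of -1.09. Cdca7, the known partner of Hells in remodeling, fell from 808 ± 91.0 to 206 ± 91.2 (log2 fold change -1.96, adjusted p = 0.000734). Usp7, a deubiquitinase that stabilizes Dnmt1 and Uhrf1, had a log2 fold change of -0.36 (adjusted p = 0.0584), and was called without DMSO replicate 3 (adjusted p = 0.0374) or SKI-II replicate 1 (0.0498).

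Among the other genes for methylation of new sites, Dnmt3l rose. Dnmt3l, a partner of Dnmt3a without catalytic activity that is best known from germ cells, was read 46, 48 and 48 times with DMSO and 299, 344 and 275 times with SKI-II. Its normalized level rose from 51.0 ± 8.52 to 296 ± 62.1 (SD, n = 3), 5.81-fold, which is 2.54 on the log2 scale with a standard error of 0.23 (edgeR, adjusted p = 5.10e-05). It shares 67 exon bases with Aire on the opposite strand, which had 1 count in all libraries together. Dnmt3b was scarce, at 31.7 ± 23.9 and 14.2 ± 3.33 normalized counts, with a log2 fold change of -1.17 that did not pass the test (adjusted p = 0.135). That value was -0.40 without DMSO replicate 1 and was called without DMSO replicate 3 (-1.61, adjusted p = 0.0184) or without a filter on low counts (adjusted p = 0.0424).

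Of the 3 genes for the supply of methyl groups, 1 fell and 2 were not called. Ahcy, which clears the product inhibitor of methyltransferases, fell by 1.43 on the log2 scale (adjusted p = 6.4e-05 by edgeR). Mat2a, which makes the methyl donor and is named after its values were seen, was read 816, 263 and 137 times with DMSO and 1051, 2114 and 477 times with SKI-II, with overlapping groups and a fitted level of 283% of that with DMSO (adjusted p = 0.0867 by edgeR). Of 8 readers of methylated DNA, 1 fell, 1 rose and 6 were not called. The riser was Zbtb4, a zinc finger protein that binds methylated DNA, from 524 ± 34.4 to 1126 ± 153 normalized counts (SD, n = 3), a log2 fold change of 1.10 (adjusted p = 0.000272). The glycosylase Tdg, which removes oxidized methylcytosine, had a log2 fold change of 0.06 (adjusted p = 0.775).

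The list of PRC2 partners and of factors that oppose lysine 27 methylation had 19 genes, 18 of them tested. Of these 5 fell and 3 rose, with a median log2 fold change of -0.23. The shares were 27.8% lower and 16.7% higher, beside 19.7% and 18.4% of all tested genes. Without DMSO replicate 2 or SKI-II replicate 2, 1 rose. The histone chaperone Rbbp7, a subunit that PRC2 shares with other complexes, fell from 4138 ± 78.1 to 1670 ± 251 normalized counts (SD, n = 3), a log2 fold change of -1.31 (adjusted p = 8.32e-05 by edgeR). Its close relative Rbbp4 had a log2 fold change of -0.26 (adjusted p = 0.0778). Accessory subunits moved in both directions. The 3 Polycomb-like proteins, which bind DNA and help to bring PRC2 to its sites, had log2 fold changes of -1.45 for Phf19 (adjusted p = 0.000109), -0.37 for Mtf2 (adjusted p = 0.0514) and 1.58 for Phf1 (adjusted p = 0.000935). Phf1 was read 109, 103 and 122 times with DMSO and 445, 299 and 350 times with SKI-II. It shares 1370 of its 3486 exon bases with Cuta on the opposite strand, which had 4591 counts in all libraries together. The labels describe no strand-marking step and the strand setting of the counting is not stated, so reads of the 2 genes may not be separable there. The same limit holds for smaller overlaps of Lig1 (247 bases, with Zswim9), Rbbp7 (174, with Txlng) and Nsd2 (60, with Nelfa).

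Jarid2, an accessory subunit known to help recruit PRC2, fell by 0.66 on the log2 scale (adjusted p = 0.00450 by edgeR). Both lysine 27 demethylases rose, Kdm6a with a log2 fold change of 0.52 (adjusted p = 0.0184) and Kdm6b with one of 0.46 (adjusted p = 0.0226). Neither call held with every library left out in turn. That of Kdm6a was lost without DMSO replicate 2 (adjusted p = 0.0824), DMSO replicate 3 (0.0516) or SKI-II replicate 2 (0.0720). That of Kdm6b was lost with replicate 1 of DMSO (0.0768) or of SKI-II (0.0759), or replicate 2 of DMSO (0.0583) or of SKI-II (0.0648), left out. Nsd2, which methylates lysine 36 and so opposes PRC2, fell by 1.00 on the log2 scale (adjusted p = 0.000141).

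PRC1, the second Polycomb complex, which ubiquitinates histone H2A and in some of its forms binds methylated lysine 27, was examined next. All 24 of its genes were tested, 6 fell, 4 rose and 14 were not called, and none changed by more than 1 on the log2 scale. The shares were 25.0% lower and 16.7% higher, beside 19.7% and 18.4% of all tested genes, and the median was -0.11. The counts rested on single libraries. Only 2 genes fell without DMSO replicate 2 or without SKI-II replicate 2, and those that rose numbered 1 without DMSO replicate 2 and 2 without DMSO replicate 1 or SKI-II replicate 1. The catalytic subunits Rnf2 and Ring1 had log2 fold changes of -0.46 (adjusted p = 0.109 by edgeR) and 0.26 (adjusted p = 0.144). Rnf2 was called without DMSO replicate 1 (adjusted p = 0.0345) or SKI-II replicate 3 (0.0400). Bmi1, a subunit known for its role in self-renewal, rose from 980 ± 57.1 to 1555 ± 65.5 normalized counts (SD, n = 3), a log2 fold change of 0.67 (adjusted p = 0.00156). Cbx2, which reads the mark, had a log2 fold change of -0.44 (adjusted p = 0.0988).

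**Figure D4:**
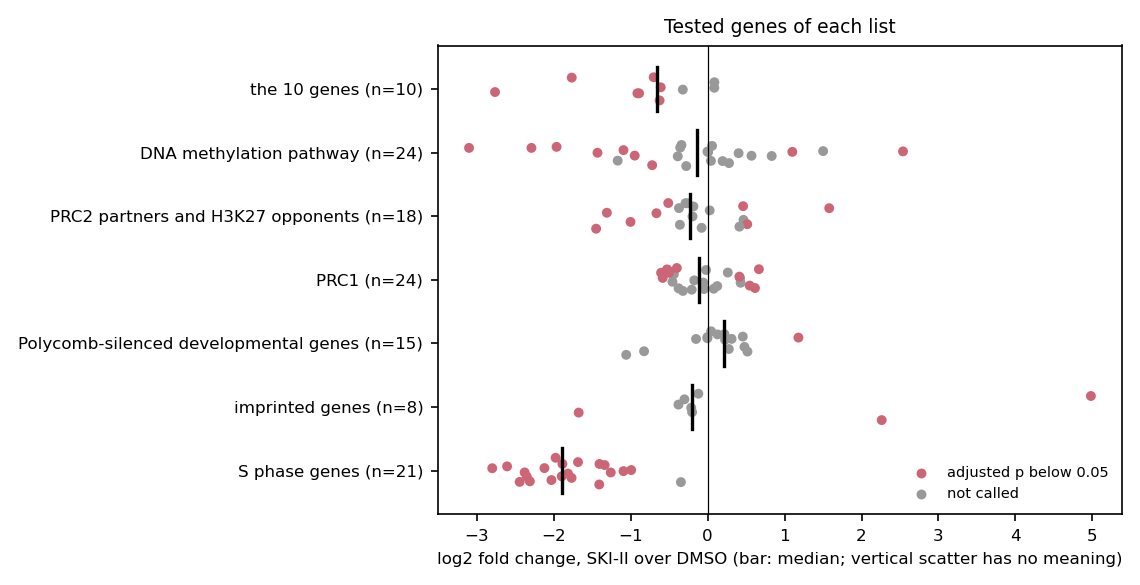
Log2 fold change, SKI-II over DMSO (horizontal axis), of each tested gene of the 10 and of 6 lists, with black bars for the median, red points for genes called at an adjusted p below 0.05 and grey points for genes not called. The 10 genes have a median of -0.66, between that of the S phase genes (-1.89) and those of the other lists, which lie between -0.23 and 0.22.

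Genes that these marks are known to keep silent were then counted. A list of 49 developmental genes known as PRC2 targets, 39 of them Hox genes, had 15 tested members, with a median log2 fold change of 0.22. Of the other 34, 28 had no count in any library, among them Cdkn2a, and the highest count of the rest was 9. Of the 15 tested genes 1 rose and 14 were not called by edgeR. With all libraries 6.67% were thus higher and 0% lower, beside 18.4% and 19.7% of all tested genes. The rise was lost when DMSO replicate 2, or replicate 1 or 2 of SKI-II, was left out. Without SKI-II replicate 3, 1 gene fell.

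Of 15 germline genes known to be silenced by DNA methylation, 3 had enough reads for a test, and 6 of the other 12 had no count at all. Taf7l, a germ cell relative of a general transcription factor subunit, had no count with DMSO and 31, 58 and 60 counts with SKI-II. It was at least 44.4-fold higher, with 3 counts over the 3 DMSO libraries as the upper limit of a zero count, a limit that covers counting error only (adjusted p = 0.000163 by edgeR). This limit was 28.2-, 32.0- and 28.5-fold without DMSO replicate 1, 2 or 3. It entered the test through the SKI-II libraries alone, as a gene at 0 in both groups could not have. Of the other 2, Sycp1 had a log2 fold change of 0.04 (adjusted p = 0.963) and Brdt one of 0.23 (adjusted p = 0.353), both named after their values were seen. The 12 untested genes summed to 2.53 to 4.86 normalized counts in a DMSO library and 1.63 to 10.1 in an SKI-II library.

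Imprinted genes, whose parental copies differ in DNA methylation, were a list of 25 with 8 tested, of which 1 fell and 2 rose. The shares were 12.5% lower and 25.0% higher, beside 19.7% and 18.4% of all tested genes. Both that rose, Grb10 and Slc22a18, entered the test through their SKI-II libraries, so that they could be called only as a rise and the count of 2 is a description. Igf2r, which encodes a receptor for mannose 6-phosphate, fell from 8148 ± 1298 to 2552 ± 508 normalized counts (SD, n = 3), a log2 fold change of -1.68 (adjusted p = 0.000103 by edgeR). Grb10, an adaptor of growth factor receptors, was read 2, 0 and 1 times with DMSO and 30, 49 and 38 times with SKI-II. Summed over libraries and scaled for depth, the SKI-II counts were 34.8 times those of DMSO, with an exact 95% counting interval of 11.6 to 171 (adjusted p = 0.000206 by edgeR), and 66.5 without DMSO replicate 1. Slc22a18, a membrane transporter, was read 6, 4 and 25 times with DMSO and 26, 70 and 97 times with SKI-II, a log2 fold change of 2.26 (adjusted p = 0.0135). Its lowest SKI-II library, at 29.1 normalized counts, was close to its highest DMSO library, at 24.8, and leaving out DMSO replicate 3 gave a log2 fold change of 3.39. Leaving out DMSO replicate 2 gave 1.93, which was not called (adjusted p = 0.0532 by edgeR). H19, the noncoding RNA often used to follow imprinting, had 1 count in all 6 libraries together.

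Replication genes were lower in the same libraries. Of 21 S phase genes, 20 fell and 0 rose, with a median log2 fold change of -1.89 and summed levels of 38556 to 49438 normalized counts in DMSO and 12379 to 15491 in SKI-II. The summed level was highest in DMSO replicate 1 and SKI-II replicate 2, and these were also the libraries of each group in which Uhrf1 and Hells were highest. Among the other genes that fell, Dnmt3a was highest in replicate 1 of both groups, and Tet3 in DMSO replicate 2 and SKI-II replicate 1. Ezh2 and Suz12 were highest in DMSO replicate 2 and SKI-II replicate 3. Dnmt1 was highest in DMSO replicate 1, but its SKI-II values, 2887, 2866 and 2865, lay too close together to be ordered. Which of 3 libraries is highest is a description, and a link to replication was not tested. The log2 fold change of Uhrf1 was lower than the median of this list, that of Dnmt1 was close to it, and those of Hells, Ezh2 and Suz12 lay nearer to 0. The part of these genes in the results was not tested.

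On their annotated positions, 5 of the 10 genes share exon bases with another gene, always on the opposite strand, with 133 bases for Dnmt3a, 43 for Tet2, 174 for Ezh2, 178 for Suz12 and 261 for Eed. The genes on the other strand had between 4 and 63 counts in all 6 libraries together, far fewer than any of the 10 genes had in a single library.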

How the data were processed

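RNA from 3 DMSO and 3 SKI-II libraries of RAW264.7 cells was sequenced after poly(A) selection. Sample titles gave the group and the replicate number. The authors trimmed reads with Trimmomatic 0.36, mapped them with STAR 2.5.2b and deposited raw counts per Ensembl gene, and the submitters' processing notes also name featureCounts and Subread 1.5.2. Build, annotation and strand setting: not given in the sources used here. All 6 columns were used.

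Symbols, exons and lengths came from GENCODE M21 (GRCm38), which named 49056 of 49315 identifiers, and promoters from RefSeq on GRCm38.p6. The main test was edgeR 4.0.16 (R 4.3.3), with TMM, the filter by expression (minimum count 10, total 15) and Benjamini-Hochberg adjustment over 12274 genes. Normalized counts are on the scale of the mean effective library, 16042438 counts. Standard errors and 95% intervals came from the fitted weights and the moderated dispersion. Libraries of a group differed by more than sampling noise (chi-square per degree of freedom 15.4 to 58.1). Alternatives were DESeq2 (the study's own test, run here in version 1.42.0), limma-voom (limma 3.58.1), other scalings and filters, left-out libraries and a replicate block. The study's version of DESeq2 was not given. The 10 genes and the lists, written from general knowledge, were chosen with earlier results of these data known. Named are the 10 genes, a fixed set of their partners (Dnmt3b, Tet1, Tdg, Cdca7, Usp7, Rbbp4, Rbbp7, Jarid2, Phf19, Mtf2, Kdm6a, Kdm6b, Rnf2, Ring1, Bmi1, Cbx2, H19 and Cdkn2a), list genes called beyond a log2 fold change of 1 or -1, and cell type markers. Some single genes are not reported here.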

Additional observations from a re-analysis of the deposited data

How the results depend on the processing

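The calls of the 10 genes were the same under every alternative run (DESeq2, limma-voom, 2 other scalings, 2 other filters, a replicate block and each library left out), except that of Tet3 without DMSO replicate 2. The lists moved more. Genes of the DNA methylation list that rose numbered 2, but 4 without a filter on low counts and 5 with the replicate block, and 2 to 4 with 1 library left out. Those of this list that fell numbered 7, but 8 without a filter, 10 with the replicate block and 6 to 9 with 1 library left out. PRC2 partners that fell numbered 5, but 7 with the replicate block. Where every library had to hold at least 10 counts, 0 germline and 0 imprinted genes rose, as that filter removed Taf7l, Grb10 and Slc22a18 from the test. The replicate block called 1 developmental gene lower in place of 0. With 1 library left out, the PRC2 partners that rose ranged from 1 to 3, PRC1 genes that fell from 2 to 6 and that rose from 1 to 4, developmental genes that fell from 0 to 1 and that rose from 0 to 1, imprinted genes that rose from 1 to 2, and macrophage markers that rose from 0 to 1. The log2 fold change of Tdg, not called, ranged from -0.0036 without DMSO replicate 2 to 0.1168 without DMSO replicate 1. Causes were not tested, save where the filter removed a gene.

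Same-numbered DMSO and SKI-II libraries deviated from their group means with correlations of 0.256, -0.068 and 0.539. Those of differently numbered libraries ran from -0.554 to 0.407. These values do not settle whether the numbers pair the samples. With the replicate block 7 of the 10 genes fell, as without it. Among the other named genes, the block added calls for Usp7 (adjusted p = 0.0170), Mtf2 (0.0291) and Rnf2 (0.0241), by edgeR. At this depth, genes with a few counts per library could not be compared between groups.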
